A study of Mus musculus with 20 samples.

Results

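The genes described here are the Hox, Lhx, Nkx, Pax, Six-family and Tbx transcription factor genes of the mouse, read in RNA libraries of preimplantation embryos. They were chosen by symbol alone: Hox genes of the 4 clusters with a paralogue number, Pax, Six-family and Lhx genes with 1 digit, Nkx genes and numbered Tbx genes. The rule found 90 of the 24411 genes listed. They are 39 Hox genes (11 Hoxa, 10 Hoxb, 9 Hoxc and 9 Hoxd), 15 Nkx, 13 Tbx, 9 Pax, 8 Lhx and 6 Six-family genes. One of the Nkx symbols, Nkx2-2os, is a noncoding antisense gene, so 89 are protein-coding factors.

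The study knocked down Pcgf5 or altered it genetically in embryos made by in vitro fertilisation of superovulated oocytes. At 3 hours after insemination, 1-cell embryos were electroporated with siRNAs against Pcgf5 (siPcgf5) or with non-targeting siRNAs (siControl), and they were collected as late 2-cell embryos at 36 hours or as morulae at 72 hours. A second experiment collected 4-cell embryos at 48 hours whose titles name a homozygous (Homo KO) or heterozygous (Hetero KO) knockout written Pcgf5MT2C_Mm, and wild-type (WT) embryos. MT2C_Mm is the name of a long terminal repeat of an endogenous retrovirus, and the labels do not describe the deletion further. There were 2 libraries of each siRNA group at each stage, 3 of Homo KO, 3 of Hetero KO and 2 of WT, each a pool of 10 embryos. All carry the same batch label, and nothing says which pools came from separate inseminations, so p-values measure the spread between these pools, which may be partly technical. Each library is a pool of whole embryos, so fewer cells with a transcript and less transcript per cell cannot be told apart.

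Hox, Lhx, Nkx, Pax, Six-family and T-box factors lay down the body axis, the limbs, the nervous system, the eye, the heart and other organs after implantation. In pluripotent cells most of their genes lie in chromatin held silent by the Polycomb repressive complexes; PRC2 methylates histone H3 and PRC1 ubiquitinates histone H2A. PCGF5 is a subunit of a variant PRC1. A transcript of these genes in a cleaving embryo may be left from the oocyte or newly made, and RNA-seq of pooled embryos does not separate the sources.

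Summed expected counts ran from 22435872 to 34631179 in the late 2-cell libraries, from 14310634 to 17871206 at the 4-cell stage and from 37628619 to 55620137 in morulae. Levels below are TPM, which scale each gene for its length and each library to 1 common total. Pcgf5 itself stood at 53.5 and 89.7 CPM (counts scaled to the library total) in siPcgf5 late 2-cell libraries, against 310 and 806 CPM in siControl. In morulae it stood at 38.8 and 32.0 CPM with siPcgf5, against 243 and 165 CPM with siControl. Homo KO libraries held 164 to 214 CPM, Hetero KO libraries 255 to 338 CPM and WT libraries 297 and 331 CPM. Its log2 fold change by edgeR was −2.96 at the late 2-cell stage (adjusted p = 0.0789), −2.53 in morulae (adjusted p = 0.242) and −0.72 in Homo KO against WT (adjusted p = 0.236), so the drop in the targeted gene did not itself pass the threshold over all genes. Genes of the 2-cell burst of transcription summed to 5118 to 8462 TPM in the late 2-cell libraries and to 172 to 243 TPM in morulae, and morula and blastocyst markers to 2582 to 4929 TPM and to 10342 to 11130 TPM, so the libraries carried the markers of their labelled stages.

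A gene was called silent in a group when its counts summed to at most 3 over the group, expressed when its group mean was at least 1 TPM, and at a trace level in between. The late 2-cell embryo expressed the most of these genes. Of the 90, 20 were expressed in siPcgf5 late 2-cell embryos and 21 in siControl, that is 22.2% and 23.3%, where 48.3% and 50% of all genes listed were. At the 4-cell stage 8 were expressed in Homo KO, 6 in Hetero KO and 5 in WT embryos, that is 8.89%, 6.67% and 5.56%, where 41.5%, 41.2% and 41.1% of all genes were. In morulae 5 were expressed with siPcgf5 and 4 with siControl, or 5.56% and 4.44%, where 36.3% and 36.7% of all genes were. Silent genes numbered 35 with siPcgf5 and 22 with siControl in late 2-cell embryos, where 27.2% and 26.1% of all genes were silent. One siPcgf5 pool stood apart there, since 42 of the 90 genes were at 0 in siPcgf5 replicate 1 and 28 in replicate 2, against 25 and 29 in the siControl pools. There were 41 in Homo KO, 38 in Hetero KO and 45 in WT 4-cell embryos, where 34.9%, 35.4% and 38.8% of all genes were silent, and 36 with siPcgf5 and 38 with siControl in morulae, where 35.9% and 34.9% were. Genes at a trace level numbered 35 with siPcgf5 and 47 with siControl in late 2-cell embryos, where 24.5% and 23.8% of all genes were at a trace. They numbered 41 in Homo KO, 46 in Hetero KO and 40 in WT 4-cell embryos, where 23.6%, 23.5% and 20.1% of all genes were at a trace, and 49 with siPcgf5 and 48 with siControl in morulae, where 27.7% and 28.3% were. The threshold shapes these counts: at 0.5 TPM 32 and 34 genes were expressed in the siPcgf5 and siControl late 2-cell groups, and at 2 TPM 9 and 12. Single pools also moved the 4-cell counts, since 14 genes reached 1 TPM in Homo KO replicate 2 against 6 and 9 in the other Homo KO pools, and 13 in WT replicate 1 against 2 in WT replicate 2.

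**Figure D1:**
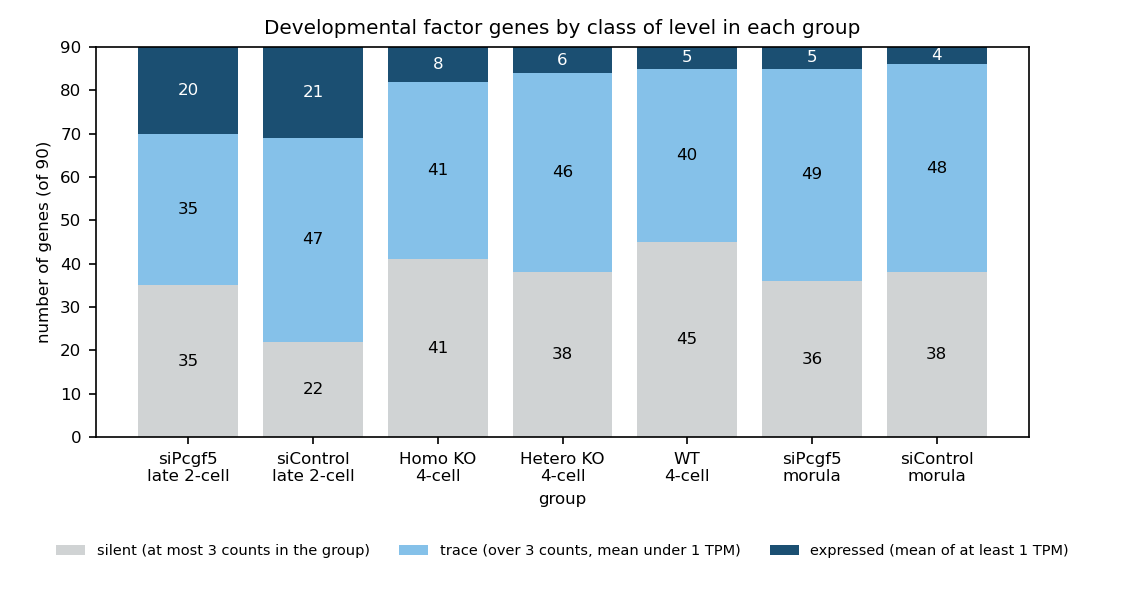
Number of the 90 genes in each class (vertical axis) for the 7 groups (horizontal axis, by stage), as stacked bars. Expressed genes number 20 and 21 in the siPcgf5 and siControl late 2-cell groups and 4 to 8 in every later group.

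Across the whole series 26 genes were expressed in at least 1 group, 53 reached a trace at most and 11 were silent in all 7 groups. Late 2-cell groups held 24 of the 26, and 12 of these (Hoxa2, Hoxb2, Hoxb7, Hoxb13, Hoxc9, Hoxd10, Lhx1, Lhx2, Lhx6, Pax3, Tbx4 and Tbx19) were expressed at no other stage. Nkx2-9 was expressed in morulae only, and Nkx2-5 at the 4-cell stage only. No gene reached 1 TPM in all 16 libraries. Counts were present in all 16 for 10 genes, among them Hoxa10, Hoxd8, Hoxd9, Lhx2, Nkx2-5, Nkx6-2, Pax6, Six4 and Tbx3.

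**Figure D2:**
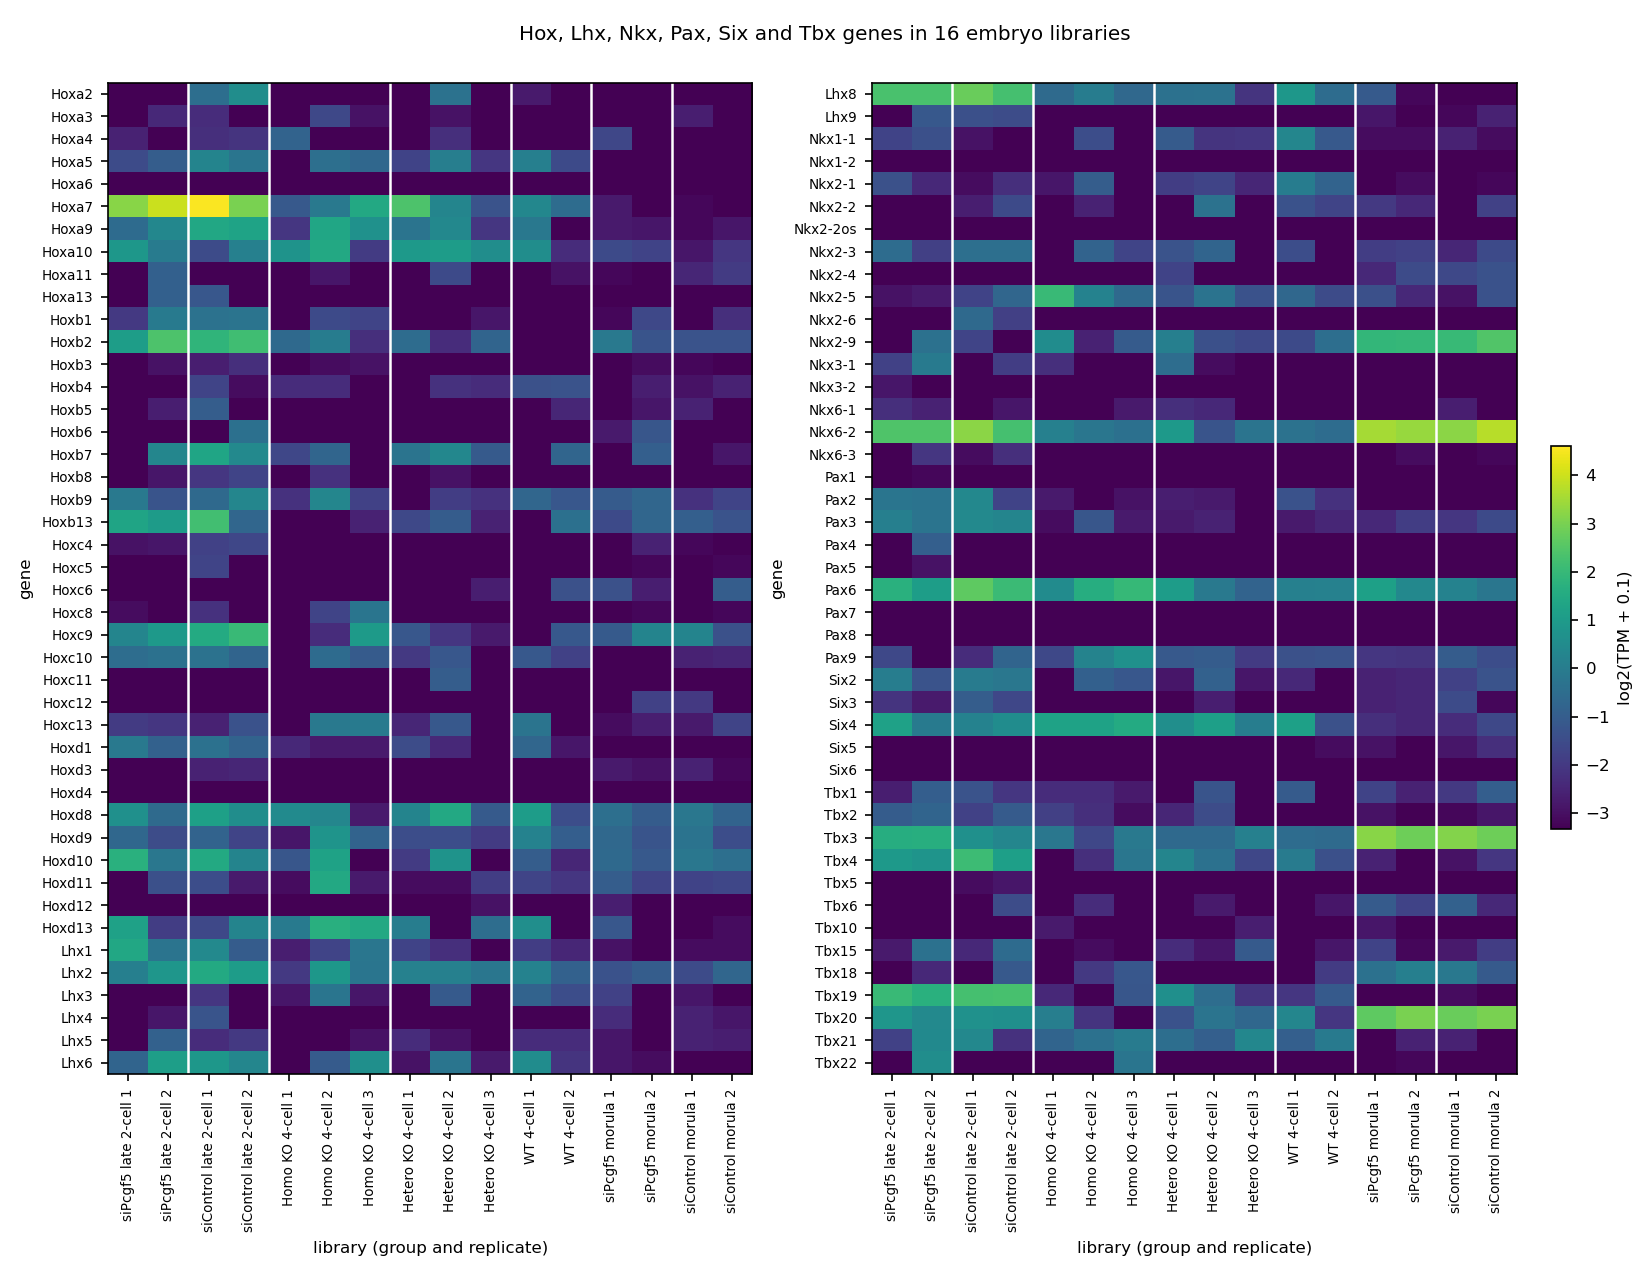
Level of 88 of the 90 genes (rows, in 2 panels) in each of the 16 libraries (columns, by stage), coloured by log2(TPM + 0.1). The brightest rows of the late 2-cell columns include Hoxa7, Lhx8, Tbx19 and Hoxb2, and those of the morula columns are Nkx6-2, Tbx3, Tbx20 and Nkx2-9.

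Silence was complete for 7 genes, which had 0 counts in all 16 libraries: Hoxa6, Hoxd4, Nkx1-2, Nkx2-2os, Pax7, Pax8 and Six6. That is 7.78% of the 90 genes, where 13.6% of all genes listed had no count anywhere. Pax7 marks muscle and neural crest precursors, Pax8 directs thyroid and kidney development, and Six6 acts in the eye and pituitary. A group at 0 could still hold up to 3 counts, and this limit covers counting error only, since PCR copies without molecular tags are not separate molecules. Nkx3-2, Pax1, Pax5 and Tbx10 were silent in every group but not at 0 in every library. Counts in a single library only were found for Hoxc11, Nkx3-2, Pax1, Pax4 and Pax5. Pax4, a factor of pancreatic endocrine cells, was such a case, at 0.43 TPM in siPcgf5 late 2-cell replicate 2 and at 0 in the other 15 libraries. Tbx22, a palate factor, was at 1.39 TPM in that same library and at 0 in the other siPcgf5 and both siControl late 2-cell libraries. Tbx22 also had counts in libraries of other stages. These cases were picked after their values were seen.

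The 300-base promoters of 6 genes are shown, from 250 bases before to 50 bases after the RefSeq start on GRCm38.p6, because they stand for the 3 patterns described next. Hoxa7 (chr6:52218524-52218823), Lhx8 (chr3:154330511-154330810) and Tbx19 (chr1:165160724-165161023) had transcripts in late 2-cell embryos and at most 2 counts over the siControl morulae. Tbx20 (chr9:24774254-24774553) and Nkx6-2 (chr7:139582748-139583047) were expressed in morulae, and Hoxa6 (chr6:52208623-52208922), the cluster neighbour of Hoxa7, had no count in any library. All 6 lie on the minus strand and are written 5′ to 3′, and capitals mark each CpG, the dinucleotide that is dense in many Polycomb target promoters.
Hoxa7: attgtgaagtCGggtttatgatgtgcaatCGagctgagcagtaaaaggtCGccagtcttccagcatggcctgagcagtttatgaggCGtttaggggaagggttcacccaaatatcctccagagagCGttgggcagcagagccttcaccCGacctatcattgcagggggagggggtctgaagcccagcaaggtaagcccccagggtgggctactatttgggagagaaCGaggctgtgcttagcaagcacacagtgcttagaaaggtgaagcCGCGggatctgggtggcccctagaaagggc
Lhx8: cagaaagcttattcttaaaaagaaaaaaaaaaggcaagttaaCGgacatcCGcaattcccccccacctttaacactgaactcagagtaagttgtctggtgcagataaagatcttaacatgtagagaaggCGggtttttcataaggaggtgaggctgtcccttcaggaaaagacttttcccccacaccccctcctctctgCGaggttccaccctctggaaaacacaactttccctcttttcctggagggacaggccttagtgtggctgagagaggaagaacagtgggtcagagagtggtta
Tbx19: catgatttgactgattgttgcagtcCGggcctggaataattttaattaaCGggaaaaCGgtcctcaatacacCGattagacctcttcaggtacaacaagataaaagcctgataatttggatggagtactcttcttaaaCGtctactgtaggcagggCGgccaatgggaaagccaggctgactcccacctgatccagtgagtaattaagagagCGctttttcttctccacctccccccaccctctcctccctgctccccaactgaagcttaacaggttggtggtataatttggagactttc
Tbx20: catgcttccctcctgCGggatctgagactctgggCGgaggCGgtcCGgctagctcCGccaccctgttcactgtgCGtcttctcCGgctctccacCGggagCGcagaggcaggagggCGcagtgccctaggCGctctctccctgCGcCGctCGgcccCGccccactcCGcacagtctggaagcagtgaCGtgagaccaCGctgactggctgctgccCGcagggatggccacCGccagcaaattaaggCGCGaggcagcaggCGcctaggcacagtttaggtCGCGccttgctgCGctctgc
Nkx6-2: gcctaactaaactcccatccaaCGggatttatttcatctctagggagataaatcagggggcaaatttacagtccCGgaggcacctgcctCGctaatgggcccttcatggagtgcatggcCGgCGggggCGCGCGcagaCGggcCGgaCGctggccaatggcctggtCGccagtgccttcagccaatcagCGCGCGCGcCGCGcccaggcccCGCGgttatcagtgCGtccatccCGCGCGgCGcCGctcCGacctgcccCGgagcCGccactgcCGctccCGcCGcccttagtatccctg
Hoxa6: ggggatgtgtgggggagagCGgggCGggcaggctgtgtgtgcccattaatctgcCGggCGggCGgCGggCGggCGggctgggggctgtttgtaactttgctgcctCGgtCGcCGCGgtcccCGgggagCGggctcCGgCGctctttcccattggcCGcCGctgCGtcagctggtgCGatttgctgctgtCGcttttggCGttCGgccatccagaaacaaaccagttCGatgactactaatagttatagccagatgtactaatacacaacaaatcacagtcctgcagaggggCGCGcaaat

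Hoxa7 held 9 CpG in these 300 bases, Lhx8 held 4 and Tbx19 held 7, and 56.5%, 38.0% and 51.4% of the 32851 promoters in the table held as few or fewer. Tbx20 and Hoxa6 each held 26 and Nkx6-2 held 32, and 16.9% and 9.52% of promoters held as many or more. Of the 15 genes called lower in siControl morulae (below), 13 had a promoter in the table, and their median was 15.5 CpG with a range of 4 to 31. The 7 genes at 0 everywhere had a median of 17 with a range of 4 to 26, and the 17224 genes of the files with a promoter a median of 13. The ranges of these sets overlapped. A comparison over all 90 genes is void, since only 62 of them, or 68.9%, had a promoter in the table. Of the motifs searched on both strands, TAATTA, which many homeodomains bind, occurred in the Tbx19 promoter and in none of the other 5, and 5.29% of all promoters held it. CACGTG, an E-box, and TCACAC, a core of T-box sites, occurred in none of the 6, and 7.15% and 14.5% of all promoters held them.

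At the late 2-cell stage no Hox cluster was expressed as a whole. In siPcgf5 embryos 2 of 11 Hoxa, 2 of 10 Hoxb, 1 of 9 Hoxc and 3 of 9 Hoxd genes were expressed, and in siControl embryos 3, 3, 1 and 2, in the same order. Of the 39, 8 were expressed in siPcgf5 and 9 in siControl late 2-cell embryos, then 4, 3 and 1 in Homo KO, Hetero KO and WT 4-cell embryos, and none in either morula group. Hoxa7 (chr6:52215623-52218573), which helps set the identity of thoracic vertebrae, was the highest of the 90 genes in all 4 late 2-cell libraries. It stood at 9.04 and 15.6 TPM in siPcgf5, against 23.2 and 7.95 TPM in siControl late 2-cell libraries. The siPcgf5 values lay inside the siControl range. Its direct cluster neighbour Hoxa6 was at 0 in all of them, while Hoxa9, a factor of the posterior axis and of blood progenitors, was at 0.58 and 1.16 TPM with siPcgf5 and at 2.59 and 2.32 TPM with siControl. Hoxb2, a hindbrain factor, was at 2.02 and 5.13 TPM with siPcgf5 and at 3.53 and 4.38 TPM with siControl. Hoxc9, a thoracic factor, was at 1.11 and 1.81 TPM with siPcgf5 and at 2.78 and 4.04 TPM with siControl, so its groups did not overlap, whereas those of Hoxb2 did. Hoxb7, of the trunk, was at 0 and 1.15 TPM with siPcgf5 and at 2.4 and 1.22 TPM with siControl, and Hoxd8 at 1.46 and 0.57 TPM with siPcgf5 and at 2.17 and 1.37 TPM with siControl.

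Paralogue numbers count the position along a cluster, with 1 at its anterior end. In siPcgf5 late 2-cell embryos 1 of 12 genes of paralogue groups 1 to 4 was expressed, 2 of 11 of groups 5 to 8 and 5 of 16 of groups 9 to 13. In siControl late 2-cell embryos these were 2, 3 and 4, in the same order. At the 4-cell stage they were 0, 1 and 3 in Homo KO, 0, 2 and 1 in Hetero KO and 0, 1 and 0 in WT embryos. These counts were not tested against each other. Hoxb13, a factor of the tail end of the axis and of the prostate, was at 2.35 and 1.93 TPM with siPcgf5 and at 4.47 and 0.51 TPM with siControl. Hoxd10 and Hoxd13 are limb factors. Hoxd10 was at 3.19 and 0.79 TPM with siPcgf5 and at 2.69 and 1.09 TPM with siControl. Hoxd13 was at 2.24 and 0.17 TPM with siPcgf5 and at 0.23 and 1.10 TPM with siControl. In Hoxd13 and Hoxb13 the pools of 1 group thus stood as far apart as the groups. Hoxa3 spans Hoxa4, Hoxa5 and Hoxa6 on the genome, and Hoxd10 overlaps Hoxd11. The library kit does not mark strand, so reads of overlapping genes cannot be told apart, and 42 of the 90 genes overlap another RefSeq gene.

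**Figure D3:**
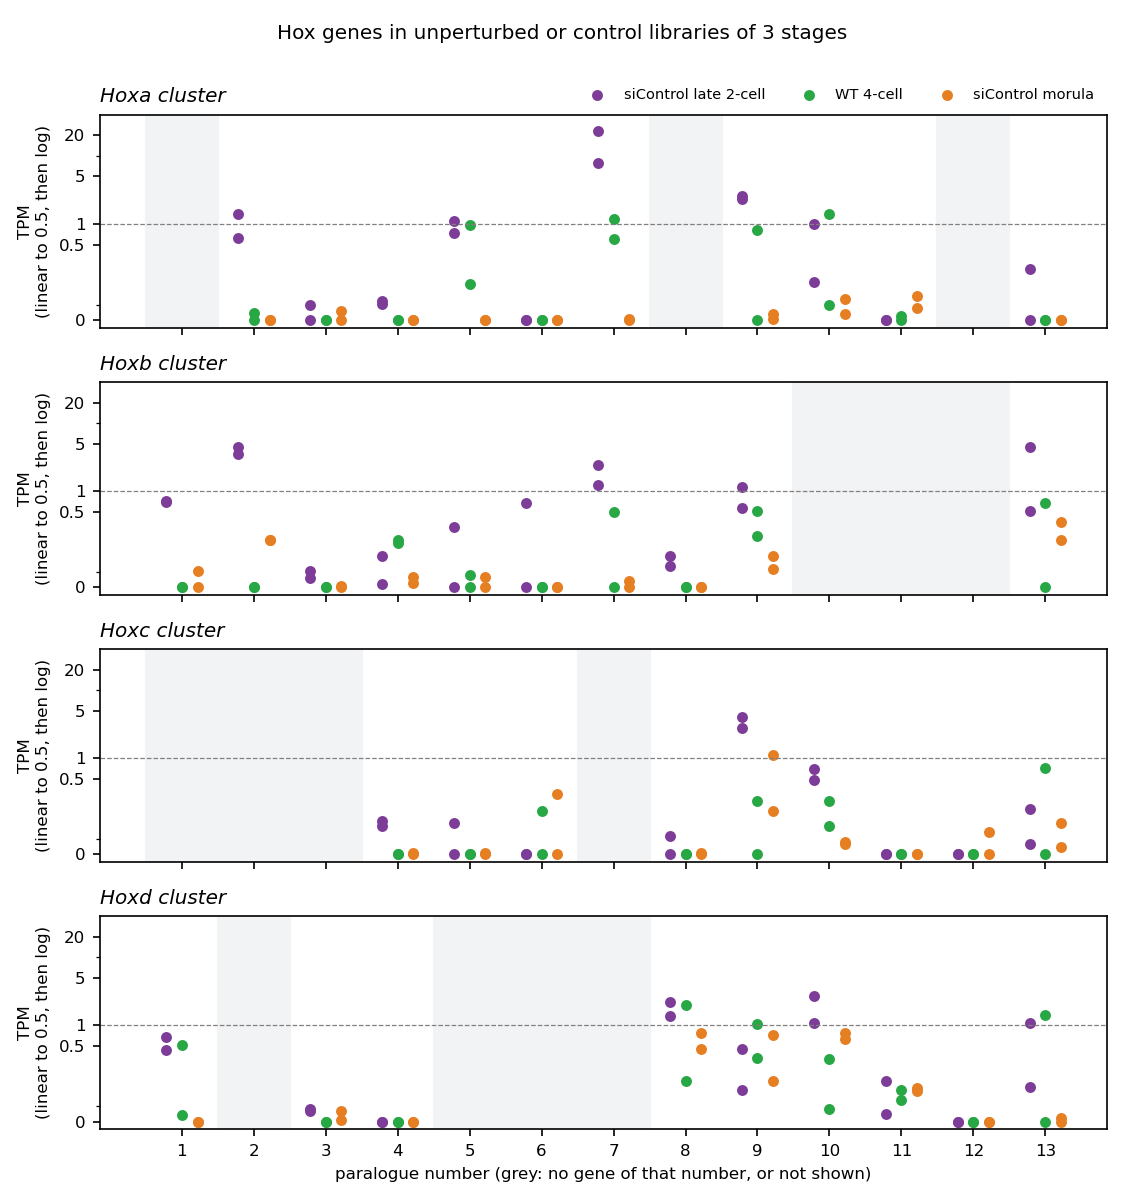
TPM of Hox genes (vertical axis, linear up to 0.5 and logarithmic above) by paralogue number (horizontal axis) in siControl late 2-cell, WT 4-cell and siControl morula libraries, 1 point a library, 1 panel a cluster. Points above 1 TPM are mostly late 2-cell libraries, with Hoxa7 highest at 23.2 and 7.95 TPM, and the only morula point above the dashed line at 1 TPM is Hoxc9 in 1 library.

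Among the LIM and T-box genes, Lhx8 and Tbx19 had the highest mean TPM in siControl late 2-cell embryos. The paired-box gene Pax6 stood at a similar level there (below). Lhx8, which is required for oocyte differentiation and for forebrain cholinergic neurons, was at 4.92 and 4.90 TPM in siPcgf5 and at 6.87 and 4.74 TPM in siControl late 2-cell libraries. Tbx19, which drives pituitary corticotroph cells, was at 4.07 and 3.14 TPM with siPcgf5 and at 4.70 and 4.84 TPM with siControl. Tbx19 TPM were lower in both siPcgf5 pools than in both siControl pools, but its groups overlapped in TMM-scaled CPM. The Lhx8 groups overlapped as well. Tbx4, a hindlimb and lung factor, was at 1.84 and 1.62 TPM with siPcgf5 and at 4.18 and 2.11 TPM with siControl. Lhx2, needed for eye and forebrain, was at 0.97 and 1.68 TPM with siPcgf5 and at 2.73 and 1.98 TPM with siControl. Both siPcgf5 pools of Tbx4 and of Lhx2 lay below both controls. Lhx6, a factor of cortical interneurons, was at 0.49 and 2.06 TPM with siPcgf5 and at 1.73 and 1.14 TPM with siControl. Pax3, of neural crest and muscle precursors, was at 0.97 and 0.73 TPM with siPcgf5 and at 1.23 and 1.12 TPM with siControl. The Pax3 groups did not overlap either, those of Lhx6 did, and none of these differences passed the test below.

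Pax6 and Six4 were expressed in every 4-cell group and in both late 2-cell groups. Pax6 is the lead factor of eye development and also acts in brain and pancreas, and Six4 acts with EYA proteins in muscle, kidney and sensory organs. Six4 was at 2.21 and 0.85 TPM in siPcgf5 and at 1.04 and 1.36 TPM in siControl late 2-cell libraries. In morulae it was at 0.11 and 0.08 TPM with siPcgf5 and at 0.1 and 0.23 TPM with siControl. All 4 morula pools of Six4 were below all 4 late 2-cell pools, and the siPcgf5 and siControl pools overlapped at both stages. Pax6 was at 3.19 and 2.04 TPM with siPcgf5 and at 6.07 and 4.08 TPM with siControl at the late 2-cell stage. In morulae it was at 2.18 and 1.19 TPM with siPcgf5 and at 1.05 and 0.76 TPM with siControl. The Pax6 pools with siPcgf5 lay below both controls at the first stage and above both at the second. Pax6 overlaps Elp4 and Six4 overlaps Mnat1 on the genome, so part of their counts may come from those genes.

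Morulae carried 4 of the genes at 1 TPM or more in every pool. Nkx6-2, a factor of ventral spinal cord and of myelinating glia, was the highest of the 90 in all 4 morula libraries, at 11.6 and 10.3 TPM with siPcgf5 and at 9.15 and 13.3 TPM with siControl. Tbx3, which acts in the limbs and heart and in the self-renewal of mouse embryonic stem cells, was at 9.08 and 7.09 TPM with siPcgf5 and at 8.67 and 7.07 TPM with siControl. Tbx20, a cardiac factor, was at 6.07 and 7.91 TPM with siPcgf5 and at 6.86 and 7.90 TPM with siControl. For Tbx3, Tbx20 and Nkx6-2 the siPcgf5 and siControl morulae overlapped. Nkx2-9, a neural tube factor, was at 3.73 and 3.8 TPM with siPcgf5, below the 3.98 and 5.39 TPM with siControl. Outside morulae Nkx2-9 exceeded 1 TPM in 1 library, Homo KO replicate 1, at 1.34 TPM. Nkx6-2 overlaps Inpp5a on the genome, and reads of the 2 genes cannot be told apart by strand.

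**Figure D4:**
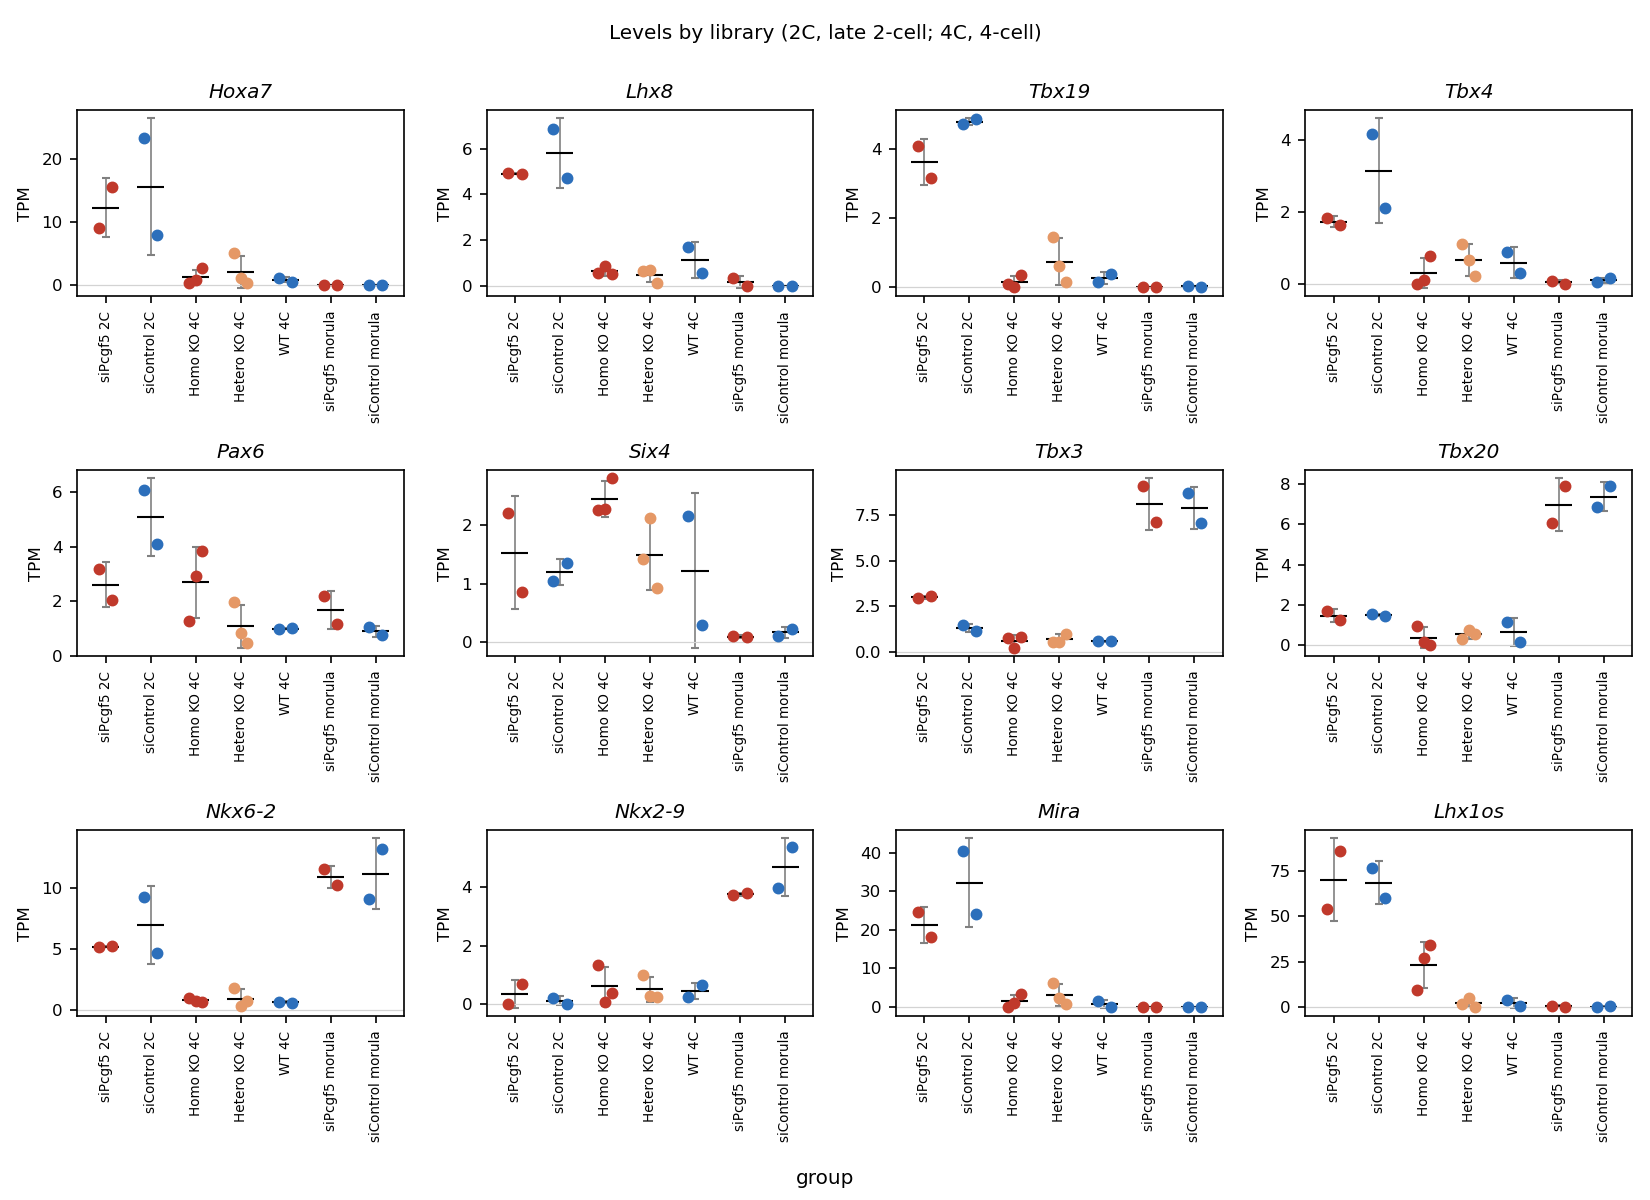
TPM (vertical axis, linear, own scale in each panel) of 10 of the genes and of the noncoding neighbours Mira and Lhx1os in the 7 groups (horizontal axis, by stage), with 1 point a library, a bar at the mean and whiskers of 1 SD. Hoxa7, Lhx8, Tbx19, Tbx4, Mira and Lhx1os are near 0 in morulae, and Tbx3, Tbx20, Nkx6-2 and Nkx2-9 are highest there.

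The change from the late 2-cell to the morula stage was tested in the siControl libraries. It gave the only calls that edgeR made among these genes. edgeR's quasi-likelihood test could be run on 53 of the 90, and 37 had too few counts. At an adjusted p under 0.05, 4 were higher in morulae, which is 7.55% of those tested where 24.9% of all genes were higher. Another 15 were lower, which is 28.3% where 28.1% of all genes were lower, so the share called lower was close to that of all genes. At an unadjusted p under 0.05 there were 20 of the 53, where 59.1% of all genes passed, and DESeq2 called 4 higher and 19 lower, where it called 56.5% of all genes. Of 75 genes with more than 3 counts, 13 had both morula pools above both late 2-cell pools and 34 had them below, or 62.7%, where 73.8% of all genes did not overlap. The median log2 fold change was −1.66 over the 53 and −0.34 over all 16980 genes tested. A gene that passed the count filter only through its late 2-cell level could hardly do other than fall. This covers genes with no count in siControl morulae, among them Hoxa2 and Lhx8 (below). The median and the number called lower are therefore descriptions. The counts moved with single libraries: 4 higher and 6 lower were called without siControl morula replicate 1, 4 and 8 without siControl late 2-cell replicate 1, and 3 and 9 without siControl morula replicate 2.

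The 4 that rose were those at 1 TPM or more in every morula pool. Of these, Nkx6-2, Tbx20 and Tbx3 also reached 1 TPM in every late 2-cell library. Tbx3 rose by 3.60 on the log2 scale (SE 0.295, adjusted p = 4.96e-06), at 8.67 and 7.07 TPM in siControl morulae against 1.46 and 1.14 TPM in siControl late 2-cell embryos. Tbx20 rose by 3.37 (SE 0.307, adjusted p = 9.25e-06), at 6.86 and 7.90 TPM against 1.52 and 1.44 TPM. Nkx2-9 was at 3.98 and 5.39 TPM against 0.21 and 0 TPM, with 495 counts over the morulae and 6 over the late 2-cell libraries. Its log2 change was 6.29 (SE 1.36, adjusted p = 0.00274). Nkx6-2 rose by 1.62 (SE 0.416, adjusted p = 0.00761), at 9.15 and 13.3 TPM against 9.29 and 4.71 TPM. The TPM groups of Nkx6-2 overlapped by a small margin while its TMM-scaled CPM did not, and its adjusted p was 0.146 with limma on log2(TPM + 1).

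Of the 15 that fell, 7 were Hox genes, among them Hoxa2, Hoxa5, Hoxa7, Hoxa9, Hoxb2 and Hoxd1. Hoxa7 had 1 count over the siControl morulae and 1327 over the siControl late 2-cell libraries, with TPM of 0.01 and 0 against 23.2 and 7.95. Its log2 change was −10.03 (SE 1.10, adjusted p = 3.07e-05). Hoxa9 fell by 5.61 on the log2 scale (SE 1.02, adjusted p = 0.000963), at 0.01 and 0.04 TPM in siControl morulae against 2.59 and 2.32 TPM. Hoxa2, which patterns the hindbrain and the pharyngeal arches, had no count in morulae and was at least 23.8-fold lower there, at 0 and 0 TPM against 0.62 and 1.39 TPM. By the same floor of 3 counts over the group, Hoxa5 was at least 26.0-fold lower and Hoxd1 at least 16.1-fold lower. Hoxb2 fell by 2.66 on the log2 scale (adjusted p = 0.0146). None of the tested Hoxc genes passed (0 of 4).

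Lhx8 had no count in siControl morulae and 474 in the late 2-cell controls, so it was at least 174-fold lower (adjusted p = 0.000747). Lhx6 was at least 73.3-fold lower (adjusted p = 0.000739), and Pax2, a kidney and midbrain factor, at least 36.3-fold lower (adjusted p = 0.00825). Tbx19 was at 0.02 and 0 TPM in siControl morulae against 4.70 and 4.84 TPM, a log2 change of −8.01 (SE 0.968, adjusted p = 9.45e-05). Smaller falls were called for Tbx4 (−4.15), Lhx1 (−4.56), Six4 (−1.87) and Pax6 (−1.47), all log2 fold changes. Of the 19 calls, 8 held in all 14 alternatives run: Tbx3, Tbx20 and Nkx2-9 among those that rose, and Hoxa7, Hoxa9, Lhx6, Lhx8 and Tbx19 among those that fell. Six4 lost its call in 8 of the 14.

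**Figure D5:**
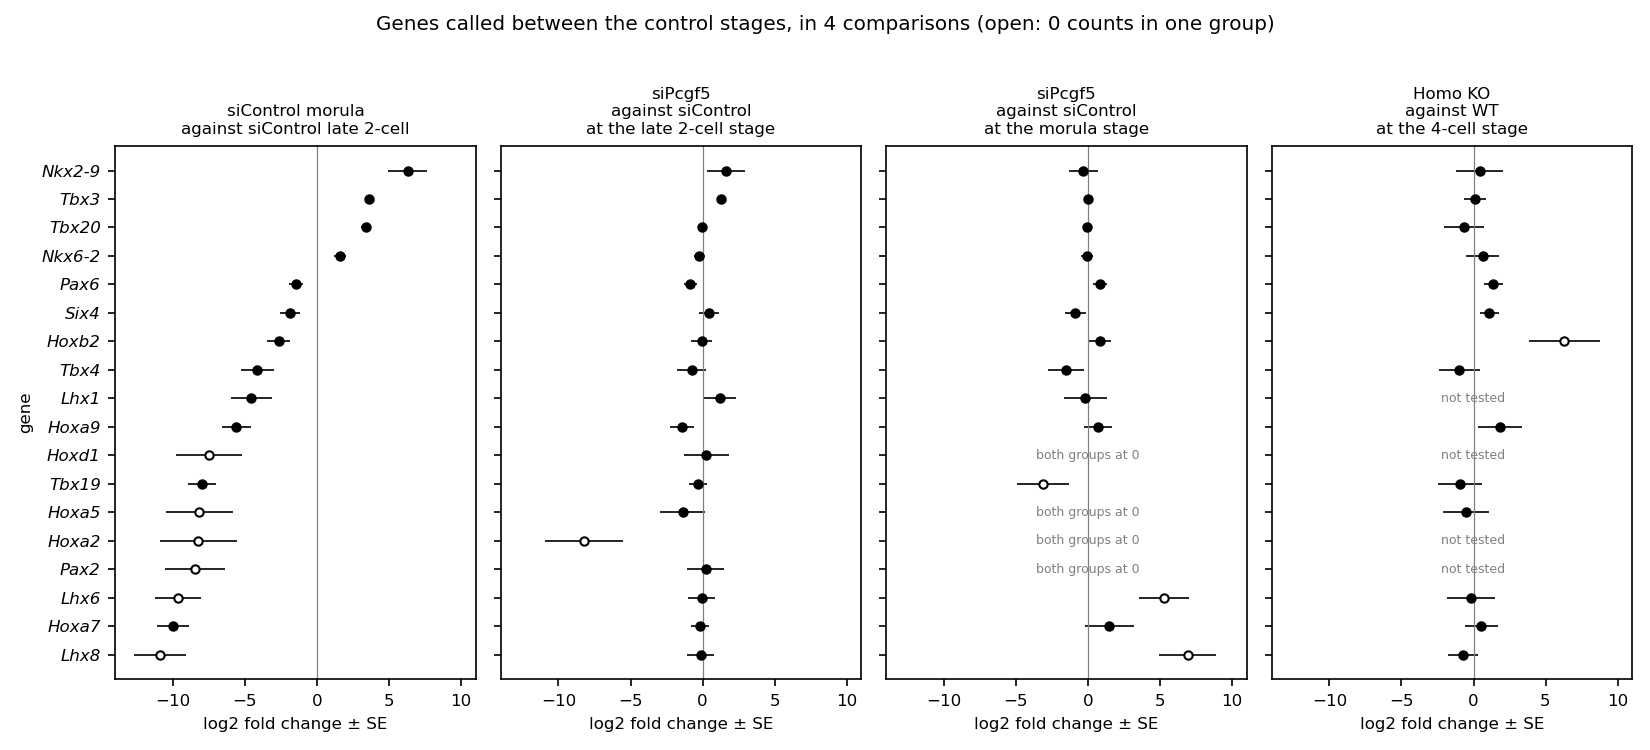
Log2 fold change with its SE (horizontal axis) of 18 of the 19 genes called between the control stages (rows) in 4 comparisons (panels), with open symbols where 1 of the groups had no count and the size is no bound. Values in the siPcgf5 and Homo KO panels scatter around 0, apart from the open symbols, and none of them passed the threshold.

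Genes that work with these factors were read between the same stages against the 52.9% of all genes that edgeR called, with 24.9% higher and 28.1% lower. Of 10 tested homeodomain cofactors of the TALE class, which bind DNA together with HOX proteins, 3 rose (Pknox1, Tgif1 and Tgif2) and 1 fell. The gene that fell was Meis2, at a mean of 0.065 TPM in siControl morulae against 149 TPM in late 2-cell controls. Of 11 partner genes of the Pax and Six-type factors, 2 rose (Tle3 and Tle4) and 3 fell (Eya1, Eya4 and Tle1). Of 13 partners of LIM factors, 3 rose, Ldb1 among them, and 5 fell. Lmo1, a LIM-only protein, was the most abundant of these, at a mean of 8.77 TPM in siControl morulae against 650 TPM in late 2-cell controls. Of 41 Polycomb subunits 6 rose, Jarid2 among them, and 16 fell, including Pcgf5, Bmi1, Scml2 and Phc2, with a median log2 fold change of −0.36. Of 22 Trithorax and opposing histone-modifying genes 8 rose and 5 fell, with a median of 0.04. Of 94 listed genes from other developmental Polycomb targets 64 were tested. Among these 6 rose and 22 fell, with a median log2 fold change of −2.44. The TALE, the Pax and Six-type partner and the LIM lists had medians of 0.05, −0.23 and −1.01, where all genes had −0.34. Here too a gene that passed the count filter only through its late 2-cell level could hardly do other than fall. The list medians and the numbers that fell are therefore descriptions. The share called in either direction was 40% in the TALE list, 45.5% in the Pax and Six-type partner list, 61.5% in the LIM list, 53.7% in the Polycomb list, 59.1% in the Trithorax list and 43.8% among other developmental targets, so 3 lists lay above the share of all genes and 3 below it. edgeR called no gene of these lists in any knockdown or KO comparison. Of all genes it called 0.0118% with siPcgf5 at the late 2-cell stage and 0.0% in each of the others.

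Markers of the stages, of the oocyte and of other cells moved with the stage as well. Of 23 tested markers of the 2-cell burst 1 was higher and 19 lower in siControl morulae, and of 23 morula and blastocyst markers 17 were higher and 1 lower. Oocyte and maternal genes summed to 92.0 to 132 TPM over the 4 morula libraries against 33592 to 58624 TPM over the 4 late 2-cell libraries, and 23 of 25 tested were called lower. In siControl, sperm markers summed to 14.3 to 17.4 TPM in morulae against 159 to 177 TPM, with 5 of 8 lower. Tnp2 and Akap4 were among those at 0 in morulae only, and Acr was at 0 in both groups. Blood markers summed to 45.3 to 47.0 TPM against 1088 to 1779 TPM, with 3 of 5 lower (Hba-a1, Hba-a2 and Lyz2) and the 4 beta-globin genes at 0 in both groups. Cumulus and granulosa markers summed to 20.8 to 24.1 TPM against 53.4 to 63.7 TPM, with 5 of 8 lower and Amh at 0 in both groups. Their part in the falls of the developmental genes was not tested.

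siPcgf5 changed none of these genes past the threshold at the late 2-cell stage. Of 53 tested, 0 were called by edgeR, where 0.0118% of all genes were, 0.00589% higher and 0.00589% lower. At an unadjusted p under 0.05 there were 2 of the 53, where 5.58% of all genes passed. The gene with the smallest p was Tbx3. It was at 2.93 and 3.03 TPM in siPcgf5 late 2-cell libraries against 1.46 and 1.14 TPM in siControl, and both siPcgf5 pools lay above both controls. The log2 fold change was 1.31 (SE 0.275, adjusted p = 0.39). DESeq2 called it (adjusted p = 0.0182), the only 1 of the 53, where it called 0.424% of all genes, and over the other alternatives the adjusted p ran from 0.109 to 1.00. Hoxa2 came next, at 0 and 0 TPM against 0.62 and 1.39 TPM and at least 22.5-fold lower (adjusted p = 0.807). Hoxa11 followed, with 26 counts that came from 1 siPcgf5 pool (at least 8.35-fold higher in summed counts, adjusted p = 0.899). That fold is set by the 1 pool and is no bound for the group. Morula and blastocyst markers, to which Tbx3 does not belong here, summed to 3751 to 4929 TPM in siPcgf5 and to 2582 to 3668 TPM in siControl late 2-cell libraries. Their part in the Tbx3 value was not tested.

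Of the 73 genes with more than 3 counts over both late 2-cell groups, 6 had both siPcgf5 pools above both siControl pools and 21 had them below. Together that is 37.0%, where 30.2% of all genes did not overlap. The shares of all genes above and below were not counted apart, so the split by direction has no background here. The 21 included 12 Hox genes, among them Hoxa5, Hoxa9, Hoxb7 and Hoxc9, beside Lhx2, Pax3, Pax6 and Tbx4. Hox genes are 39 of the 90. The median log2 fold change over the 53 tested was −0.15, against −0.01 over all genes. Summed over the 90 genes, TPM were 66.3 and 72.9 in siPcgf5 and 106 and 71.3 in siControl libraries, so siControl replicate 1 stood above the other 3 pools.

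In morulae siPcgf5 again gave no call among the 53 tested genes, where 0.0% of all genes were called by edgeR, and 3 of the 53 had an unadjusted p under 0.05, where 4.22% of all genes did. DESeq2 called 0 of the 53 and 0.135% of all genes. Lhx8 had the smallest p, at 0.37 and 0.01 TPM in siPcgf5 morulae against 0 and 0 TPM in siControl. Its 26 counts came almost wholly from siPcgf5 replicate 1 (at least 9.03-fold higher in summed counts, adjusted p = 0.951). That fold too is set by 1 pool. Lhx6 was at 0.04 and 0.02 TPM against 0 and 0 TPM (at least 3.12-fold higher, adjusted p = 1.00). Hoxc10, a lumbar and hindlimb factor, was at 0 and 0 TPM against 0.07 and 0.08 TPM (at least 4.16-fold lower, adjusted p = 1.00). All of these are trace levels. Of the 24 tested Hox genes 13 had a positive log2 fold change, with a median of 0.04. They were 4 of 8 Hoxa, 6 of 6 Hoxb, 1 of 4 Hoxc and 2 of 6 Hoxd genes. With siPcgf5 at the late 2-cell stage 3, 0, 1 and 4 of them were positive, in the same order. These counts were not tested, and the share of all genes with a positive change was not counted. A gene without counts in both groups has no change and was not counted as positive. No Hox gene was expressed in morulae, so the morula counts rest on trace levels.

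In morulae Tbx3 had a log2 fold change of 0.00, and the difference between the stage effects was −1.304 (SE 0.379, adjusted p = 0.887). Of the 53, 0 passed that test of difference by edgeR, where 0.0% of all genes did, and 0 by DESeq2, where 0.188% did. At an unadjusted p under 0.05 by edgeR there were 7 of the 53, where 4.96% of all genes passed. Of 62 genes with more than 3 counts, 9 had both siPcgf5 morula pools above both controls and 8 had them below, or 27.4% together, where 33.4% of all genes did not overlap.

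At the 4-cell stage 31 of the 90 genes could be tested, and none was called in any of the 3 comparisons by edgeR, where 0.0% of all genes were called in each, or by DESeq2. DESeq2 called 2.42% of all genes in Homo KO against WT, 0.0508% in Hetero KO against WT and 0.806% in Homo KO against Hetero KO. In each comparison 1 of the 31 had an unadjusted p under 0.05 by edgeR, where 12.4%, 4.76% and 8.22% of all genes did, in the same order. Both KO groups are set against the same WT pools. In Homo KO against WT this was Hoxb2, at 0.55, 0.91 and 0.11 TPM in Homo KO against 0 and 0 TPM in WT, at least 6.78-fold higher (adjusted p = 0.353). Hetero KO pools had 0.60, 0.10 and 0.49 TPM of it, at least 4.84-fold above WT (adjusted p = 0.945). Pax6 was at 1.3, 2.94 and 3.83 TPM in Homo KO, at 1.97, 0.83 and 0.47 TPM in Hetero KO and at 1.00 and 1.02 TPM in WT embryos. All 3 Homo KO pools were above both WT pools but overlapped the Hetero KO pools. Its log2 fold change was 1.39 over WT (SE 0.677, adjusted p = 0.434) and 1.35 over Hetero KO (SE 0.588, adjusted p = 0.602).

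The Hox genes with a mean of at least 1 TPM in a 4-cell group were Hoxa7, Hoxa9, Hoxa10, Hoxd8 and Hoxd13. Hoxa10, a uterine and limb factor, was at 1.59, 2.64 and 0.16 TPM in Homo KO, at 1.79, 1.98 and 1.39 TPM in Hetero KO and at 1.39 and 0.1 TPM in WT embryos. It was at 1 TPM or more in all 3 Hetero KO pools, which lay above both WT pools in TMM-scaled CPM, while the Homo KO and WT pools spread widely. Hoxa7 was at 0.36, 0.83 and 2.67 TPM in Homo KO, at 5.08, 1.11 and 0.31 TPM in Hetero KO and at 1.17 and 0.6 TPM in WT. Hoxd13 was at 0.85, 3.07 and 2.64 TPM in Homo KO, at 0.93, 0 and 0.61 TPM in Hetero KO and at 1.41 and 0 TPM in WT. The groups of Hoxa7 overlapped throughout, and Hoxd13 was above 1 TPM in 2 of 3 Homo KO pools. Hoxa9 was at 0.14, 2.50 and 1.52 TPM in Homo KO, at 0.72, 1.2 and 0.14 TPM in Hetero KO and at 0.81 and 0 TPM in WT. Hoxd8 was at 1.27, 1.14 and 0.05 TPM in Homo KO, at 1.10, 2.64 and 0.37 TPM in Hetero KO and at 1.96 and 0.27 TPM in WT. The groups of both genes overlapped. Lhx8, which was expressed in WT 4-cell embryos by its mean, was at 0.57, 0.90 and 0.54 TPM in Homo KO, at 0.67, 0.69 and 0.13 TPM in Hetero KO and at 1.72 and 0.60 TPM in WT. The 4-cell libraries come from a separate experiment and were not tested against the other stages.

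Nkx2-5, the cardiac homeobox gene, was at 4.01, 1.04 and 0.55 TPM in Homo KO, at 0.32, 0.71 and 0.30 TPM in Hetero KO and at 0.52 and 0.25 TPM in WT libraries. Its mean over 1 TPM in Homo KO rested mostly on replicate 1. Its log2 fold change was 2.35 over WT (SE 1.24, adjusted p = 0.467) and 2.12 over Hetero KO (SE 1.05, adjusted p = 0.641). Six4 was at 2.26, 2.28 and 2.80 TPM in Homo KO, at 1.42, 2.13 and 0.93 TPM in Hetero KO and at 2.16 and 0.29 TPM in WT, so all Homo KO pools were above all others. Its log2 fold change over WT was 1.11 (SE 0.646, adjusted p = 0.51). The next genes by p in Hetero KO against WT were Hoxb9, with a log2 fold change of −2.02 (adjusted p = 0.951), and Nkx2-1, of thyroid and lung, with −2.16 (adjusted p = 0.953). Of 55 genes with more than 3 counts, 5 did not overlap with Homo KO above WT and 6 with Homo KO below, or 20%, where 27.3% of all genes did not overlap. For Hetero KO against WT these were 2 and 6 of 54, or 14.8% where 19.3% of all genes did not overlap, and for Homo KO against Hetero KO 2 and 2 of 59, or 6.78% where 13.1% did. Genes of the 2-cell burst summed to 2156 to 2476 TPM in Homo KO, to 681 to 1200 TPM in Hetero KO and to 512 and 2031 TPM in WT embryos, and their part in the Pax6 and Six4 values was not tested.

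Some noncoding neighbours of these genes were more abundant than the genes, and they were picked after their values were seen. Mira (chr6:52214491-52215288) ends 334 bases from the nearest end of Hoxa7. It was at 24.6 and 18.04 TPM in siPcgf5 and at 40.4 and 24.03 TPM in siControl late 2-cell libraries, with 0 counts in all 4 morula libraries. In siControl it was at least 326-fold lower in morulae (adjusted p = 2.27e-05). Mira lies between Hoxa6 and Hoxa7. Of the 3, Hoxa7 and Mira had late 2-cell transcripts and Hoxa6 had none. Lhx1os starts 125 bases from Lhx1, a factor of the head organiser and kidney, and was at 54.0 and 86.4 TPM in siPcgf5 and at 77.0 and 60.1 TPM in siControl late 2-cell libraries. Lhx1 itself stood at 2.58 and 0.72 TPM with siPcgf5 and at 1.23 and 0.39 TPM with siControl. In siControl morulae Lhx1os was at 0 and 0.14 TPM, a log2 change of −8.74 (SE 1.15, adjusted p = 0.000116).

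Lhx1os was not called in the 4-cell comparisons. It was at 9.10, 26.8 and 33.9 TPM in Homo KO, at 1.67, 4.83 and 0 TPM in Hetero KO and at 3.91 and 0.16 TPM in WT libraries. All 3 Homo KO pools were above every other 4-cell pool. The log2 fold change was 3.60 over WT (SE 1.42, adjusted p = 0.357) and 3.45 over Hetero KO (SE 1.19, adjusted p = 0.518). Lhx1 itself was at 0.06, 0.21 and 0.76 TPM in Homo KO, at 0.20, 0.11 and 0 TPM in Hetero KO and at 0.17 and 0.08 TPM in WT, and it could not be tested. Hotairm1, a noncoding gene of the Hoxa cluster, was at 38.0 and 60.4 TPM in siPcgf5 and at 25.0 and 15.6 TPM in siControl late 2-cell libraries. Both siPcgf5 pools were above both controls, with a log2 fold change of 1.51 (SE 0.912, unadjusted p = 0.127 by edgeR's test). Hotairm1 rested on 202 counts in siPcgf5 and 70 in siControl late 2-cell libraries.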

How the data were processed

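RNA was measured in 16 libraries of 10 embryos each. Libraries were prepared with SMART-Seq v4, per the labels' protocols, which does not mark strand. The authors deposited expected counts and TPM per gene, and per the submitters' processing notes STAR 2.7.10 and RSEM 1.3.3 were used with mm10. Expected counts were rounded and tested with edgeR 4.0.16 in R 4.3.3 (TMM, filterByExpr with a minimum count of 10, robust quasi-likelihood test, two-sided, Benjamini-Hochberg adjustment over all genes tested, threshold 0.05). The knockdown libraries were fitted together (16980 genes) and the 4-cell libraries together (13766 genes). The procedure was also run on simulated data, with changed genes drawn at random from all genes tested. That run does not measure its power at the low counts of the genes described here. Overlap between groups was judged on TMM-scaled CPM, in genes with more than 3 counts over both groups, unless TPM are named. Folds against a group at 0 use a floor of 3 counts over the group. DESeq2 1.42.0 and limma 3.58.1 on log2(TPM + 1) were alternatives.

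The 90 genes and all gene lists were chosen with earlier results of these data known. Values are given for genes with a group mean of at least 1 TPM, genes past the threshold, and the 3 smallest p-values of each siPcgf5 or KO comparison. Of other lists at most 4 genes by p are named, and Pcgf5, except that every called Pax and Six-type partner is named. Other genes named were picked after their values were seen. Promoters are from RefSeq (GRCm38.p6), for 62 of the 90 genes. The 4 chromatin libraries were not analysed here. With 2 or 3 pools a group, the common biological coefficient of variation was 0.460 in the knockdown and 0.517 in the 4-cell fit. Counts cover all 90 genes, and values of 2 of them are not reported here. Same-numbered libraries were not paired by any label.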

Additional observations from a re-analysis of the deposited data

Results flagged for a closer look

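Hoxc10 and Pax6 stood out because siPcgf5 pools lay on opposite sides of both controls at the late 2-cell and morula stages in TMM-scaled CPM. In TPM the late 2-cell groups of Hoxc10 overlapped, at 0.61 and 0.68 TPM with siPcgf5 against 0.70 and 0.49 TPM with siControl. For Pax6 the siPcgf5 effect in morulae minus that at the late 2-cell stage was 1.67 on the log2 scale (edgeR, unadjusted p = 0.0276, adjusted p = 0.966). For Hoxc10 it was −5.89 (edgeR, unadjusted p = 0.0368, adjusted p = 0.966), with no count in siPcgf5 morulae, so that size is no bound. Neither difference passed the adjusted test. Both genes were picked for their opposite effects, so the unadjusted p-values are no test of them. Of all genes with more than 3 counts, 30.2% did not overlap at the late 2-cell stage and 33.4% in morulae. The share of all genes on opposite sides at the 2 stages was not counted.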

How the results depend on the processing

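The count of called genes changed by more than 1.5 times under 2 of the alternatives that keep all libraries: DESeq2 called 1 gene (Tbx3) in siPcgf5 late 2-cell embryos, and limma on log2(TPM + 1) called 29 between the control stages, 4 higher and 25 lower. Leaving out 1 library at a time gave 10 to 18 calls between the control stages. At 0.5 TPM in place of 1 TPM, expressed genes numbered 32 (siPcgf5) and 34 (siControl) in late 2-cell embryos, 23, 17 and 19 in Homo KO, Hetero KO and WT, and 9 (siPcgf5) and 10 (siControl) in morulae, and trace genes 23 in siPcgf5 late 2-cell, 26 in Homo KO and 26 in WT. At 2 TPM, expressed genes numbered 9 and 12 in siPcgf5 and siControl late 2-cell embryos and 4, 2 and 1 in Homo KO, Hetero KO and WT. Requiring 1 TPM in every library, chosen after seeing the data, left 12 in siPcgf5 late 2-cell and 2 in each 4-cell group. Without 1 library, silent genes in siControl late 2-cell were 30 to 35, expressed genes 6 to 13 in Homo KO and 2 to 13 in WT, and trace genes 29 to 42 in Hetero KO and 23 to 34 in WT. The cause of these shifts was not tested. Scaling by DESeq2 size factors moved the median of all genes between the control stages to −0.51. With the replicate number as a block, 4 genes were higher and 13 lower between the control stages. Same-numbered knockdown libraries did not deviate together (correlation −0.038 between siPcgf5 and siControl at the late 2-cell stage). Pools of 2 or 3 and trace counts limit what these libraries can show of genes under 1 TPM.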
